A study of Mus musculus with 30 samples.

Results

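The 10 immediate-early-high and the 10 immediate-early-low tumours described here are the ends of a ranking of 30 PyMT-induced mouse mammary tumours. They were chosen by a score from the measured values themselves. The score is the mean, over Fos, Fosb, Jun, Junb, Egr1, Ier2, Atf3 and Dusp1, of log2(RPKM + 1) standardised over the 30 tumours. RPKM scales a transcript's reads by its length and by the reads of its library. The 10 tumours with the highest score form one group and the 10 with the lowest the other, which takes 20 tumours of the 30 in all, and the other 10 lie between them. Every animal in both groups came from a cross of MOLF, a wild-derived inbred strain, with mice carrying the polyoma middle T antigen (PyMT), whose offspring were bred back to FVB. MOLF segments thus differ between animals, and each animal gave 1 tumour library. The labels give no treatment, age, stage or time of dissection, and neither the transgene's promoter nor how much of each piece was tumour. RNA was selected for poly-A, fragmented and sequenced from bulk tissue, so fewer cells of a type and less RNA per cell cannot be told apart. Of the markers of the labelled tissue, the luminal keratin gene Krt8 was between 471 and 794 RPKM in immediate-early-high tumours and between 284 and 613 RPKM in immediate-early-low tumours.

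Immediate early genes are transcribed within minutes of a stimulus without new protein synthesis. Growth factors act through Ras and ERK on ternary complex factors and serum response factor (SRF), which sit on CArG boxes, while cyclic AMP and stress signals act through CREB and ATF factors on CRE sites. The products include the AP-1 subunits of the FOS and JUN families, which pair on DNA and drive a second wave of targets, the EGR zinc-finger factors, and inhibitors such as the DUSP phosphatases that switch the kinases off. Handling, warming and dissociation of tissue are also known to raise these transcripts.

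The FOS-family members are described first, as a description of what chose the tumours and with no test. Fos, the partner of JUN proteins in AP-1, was at 18.1, 24.3 and 49.6 RPKM (lowest, median and highest) in immediate-early-high tumours, against 10.1, 17.1 and 27.7 RPKM in immediate-early-low tumours. Only 3 of the 10 immediate-early-high tumours were above every immediate-early-low tumour for Fos, so the groups overlap. Fosb, a close relative of Fos, was scarce, at 1.19, 2.65 and 4.64 RPKM in immediate-early-high tumours, against 0.980, 1.33 and 1.88 RPKM in immediate-early-low tumours. For Fosb, 7 immediate-early-high tumours were above every immediate-early-low tumour.

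Among the JUN subunits, Jun was at 21.7, 35.4 and 47.8 RPKM in immediate-early-high tumours, against 19.3, 23.4 and 27.1 RPKM in immediate-early-low tumours. Jun separated the groups better than any other score gene by this measure: 9 immediate-early-high tumours were above every immediate-early-low tumour, and the exception was animal 4016. Junb, the JUN protein with the weaker transactivation, was at 29.8, 39.6 and 79.6 RPKM in immediate-early-high tumours, against 16.9, 27.2 and 41.0 RPKM in immediate-early-low tumours. The highest Junb, Egr1 and Ier2 values all came from animal 4042, and those of Fos, Fosb and Jun from animal 4139.

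Egr1, the serum-induced zinc-finger factor, was at 19.3, 31.7 and 65.8 RPKM in immediate-early-high tumours, against 14.9, 22.3 and 30.2 RPKM in immediate-early-low tumours. Ier2, a small nuclear protein gene of the first response, was at 36.7, 51.6 and 77.7 RPKM in immediate-early-high tumours, against 30.0, 37.0 and 62.9 RPKM in immediate-early-low tumours. Ier2 had the smallest difference of the 8, 0.39 on the log2(RPKM + 1) scale, and only 2 immediate-early-high tumours were above every immediate-early-low tumour. Atf3, a stress-induced partner of JUN, was at 6.47, 10.1 and 21.4 RPKM in immediate-early-high tumours, against 2.93, 5.56 and 11.2 RPKM in immediate-early-low tumours. Its difference was the largest, 0.76, although only 2 immediate-early-high tumours were above every immediate-early-low tumour. Dusp1, the phosphatase that inactivates JNK, p38 and ERK, was at 9.48, 11.8 and 18.3 RPKM in immediate-early-high tumours, against 6.23, 7.64 and 11 RPKM in immediate-early-low tumours. Between these ends lay Fos with a difference of 0.69, Junb with 0.62, Fosb and Dusp1 with 0.55, Jun with 0.54 and Egr1 with 0.47.

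The score averaged 0.76 ± 0.55 in immediate-early-high tumours and -0.64 ± 0.22 in immediate-early-low tumours (SD, n = 10 each). Animals 4139 and 4042 stood apart at 1.95 and 1.58, since the next animal, 4488, was at 0.69. In both of them all 8 genes were above their mean over the 30 tumours, as they were in animal 3427, with a score of 0.57. At the edge of the group, animals 4438 and 4016 had scores of 0.34 and 0.21, with 4 and 5 of the 8 genes above their mean. Just outside it, animals 4516 and 4511 had scores of 0.15 and 0.06. The first members of the immediate-early-low group, animals 4638 and 3939, had scores of -0.45 and -0.47, next to animals 3654 and 3540 outside it at -0.33 and -0.38. The ranking is therefore a gradient with 2 tumours at its top, and below them the 8 genes often differed in sign within a tumour. In animal 4438 the highest z of the 8 was that of Atf3, 2.71, and in animal 4016 that of Fos, 1.96.

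**Figure D1:**
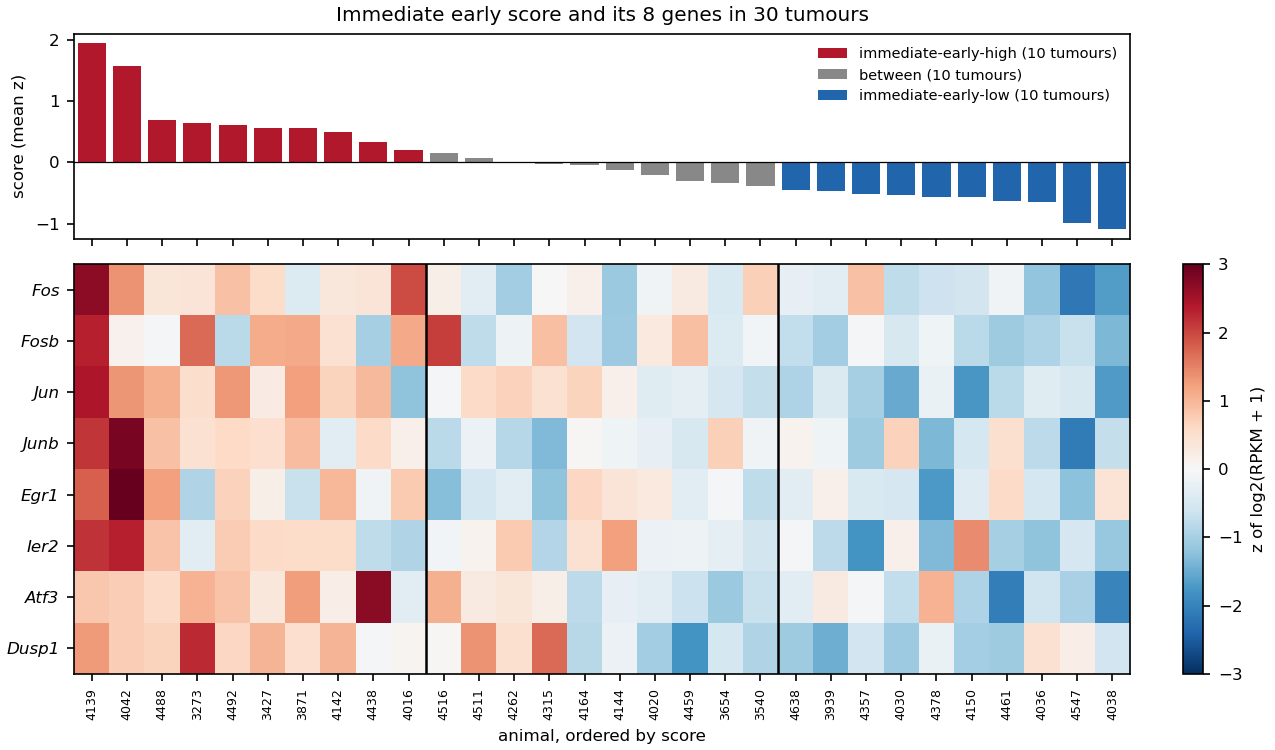
The upper panel plots the score (mean z over 8 genes) of each of the 30 tumours, ordered from high to low, and the lower panel the z of log2(RPKM + 1) of each score gene in the same order. Animals 4139 and 4042 stand apart at 1.95 and 1.58, and below them single genes often run against the score.

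Promoter windows are shown because CArG boxes, CRE sites and EGR sites are the elements through which genes of this kind are known to be induced. They are printed for a pair of score genes and for 3 genes outside the score that are described below. They are the 250 bases before the transcription start in RefSeq, build GRCm38.p6, read 5′ to 3′ on the gene's strand. Capitals mark motifs found on either strand: CArG boxes, the CRE core TGACG (which overlaps the full CRE, TGACGTCA), the AP-1 site TGANTCA and the EGR site GCGNGGGCG. Fos is at chr12:85473640-85473889 (plus strand), Dusp1 at chr17:26508473-26508722 (minus strand), Srf at chr17:46556163-46556412 (minus strand), Zfp36 at chr7:28379229-28379478 (minus strand) and Zyx at chr6:42349578-42349827 (plus strand).
Fos: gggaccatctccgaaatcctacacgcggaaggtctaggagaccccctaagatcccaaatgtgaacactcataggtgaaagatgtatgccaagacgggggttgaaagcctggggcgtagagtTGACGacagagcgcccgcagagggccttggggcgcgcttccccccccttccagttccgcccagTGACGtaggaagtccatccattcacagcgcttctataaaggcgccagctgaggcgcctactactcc
Dusp1: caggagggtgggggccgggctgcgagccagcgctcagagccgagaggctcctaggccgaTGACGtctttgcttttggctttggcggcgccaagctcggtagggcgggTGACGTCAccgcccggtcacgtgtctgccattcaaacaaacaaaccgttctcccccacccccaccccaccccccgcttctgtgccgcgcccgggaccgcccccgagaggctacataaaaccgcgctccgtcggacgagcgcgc
Srf: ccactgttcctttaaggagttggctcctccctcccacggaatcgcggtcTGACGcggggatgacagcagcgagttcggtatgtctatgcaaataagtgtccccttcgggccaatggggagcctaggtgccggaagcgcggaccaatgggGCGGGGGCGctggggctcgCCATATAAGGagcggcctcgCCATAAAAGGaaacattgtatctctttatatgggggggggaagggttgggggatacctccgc
Zfp36: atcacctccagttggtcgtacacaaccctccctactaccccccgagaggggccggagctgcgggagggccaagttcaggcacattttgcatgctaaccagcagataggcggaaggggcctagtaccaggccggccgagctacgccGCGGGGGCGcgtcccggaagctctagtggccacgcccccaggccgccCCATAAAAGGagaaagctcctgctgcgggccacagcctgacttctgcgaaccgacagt
Zyx: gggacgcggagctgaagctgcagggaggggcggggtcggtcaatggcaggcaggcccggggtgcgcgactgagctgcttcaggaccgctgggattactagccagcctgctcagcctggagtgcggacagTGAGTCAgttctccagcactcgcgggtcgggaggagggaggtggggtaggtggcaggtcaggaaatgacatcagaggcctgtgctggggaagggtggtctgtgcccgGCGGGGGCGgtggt

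The Fos window held CRE cores at 129 to 125 and 66 to 62 bases before the start. The Dusp1 window held a full CRE at 143 to 136 bases before the start and another core at 191 to 187. A full CRE occurs in 1.55% of 32851 RefSeq promoter windows of this length and the core in 17.8%. The Srf window held 2 CArG boxes, at 82 to 73 and 62 to 53 bases before the start, and that of Zfp36 held 1, at 58 to 49, beside an EGR site in each. CArG boxes occur in 1.47% of all windows and EGR sites in 4.7%. The Zyx window held an AP-1 site at 121 to 115, a motif of 6.75% of all windows, and an EGR site at 14 to 6. No motif of these kinds was in the Jun, Jund, Irx3, Rhob or Ier5l windows. Of the 8 score genes 6 had a window, and Egr1 and Ier2 had none. Bases further upstream were not searched, so a window without a motif does not mean that the gene lacks it. Counted by gene, a CArG box was in 0 of the 6 score genes, in 3 of the 49 immediate early genes outside the score with a window and in 156 of the 10808 tested genes with a window (1.44%). A full CRE was in 1 of the 6 score genes, in 6 of those 49 genes (12.2%) and in 319 of the 10808 (2.95%). EGR sites were in 13 of those 49 genes (26.5%), against 1070 of the 10808 (9.9%). These letters describe the windows only, and the printed genes were picked after the values and motifs had been seen.

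The libraries of the groups were compared for 3 measures, and no difference passed an adjusted p of 0.05. Depth was read off the spacing of low values and gave 15 deep libraries (117 to 196 megareads) and 15 shallow ones (42.6 to 62.0 megareads). There were 6 deep libraries of 10 in immediate-early-high tumours and 4 of 10 in immediate-early-low tumours. Depth averaged 127 ± 61.8 megareads in immediate-early-high tumours and 97.7 ± 58.4 megareads in immediate-early-low tumours (SD, n = 10 each). The mean insert size given in the labels averaged 246 ± 21.8 in immediate-early-high tumours and 249 ± 14.7 in immediate-early-low tumours. With 100000 resamples, two-sided permutation tests gave p = 0.278 for depth (adjusted 0.417 over 3 measures) and p = 0.756 for insert size. The 3rd measure was the GC slope of a tumour, the log2 deviation of its genes from their mean over all tumours per 10 percentage points of transcript GC content. GC slopes averaged 0.0450 ± 0.145 in immediate-early-high tumours and -0.0560 ± 0.0802 in immediate-early-low tumours (permutation p = 0.0718, adjusted 0.215). They were above 0 in 8 of 10 immediate-early-high tumours, 6 of 10 tumours between and 2 of 10 immediate-early-low tumours. Both immediate-early-high exceptions, animals 4438 and 4016, were the members nearest the edge of the group.

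Across the other genes, the 10 immediate-early-high tumours were compared with the 10 immediate-early-low tumours by limma on log2(RPKM + 1). The fit took the 13597 genes that averaged 1 RPKM or more, without the 8 score genes. No gene passed an adjusted p of 0.05 in either direction (Benjamini-Hochberg), and the smallest adjusted p was 0.137. At an unadjusted p under 0.05, 640 genes were higher in immediate-early-high tumours (4.71% of genes tested) and 377 were lower (2.77%). The median difference of all tested genes was -0.01, and 0 genes in either direction had groups that did not overlap. Differences below are on the log2(RPKM + 1) scale, immediate-early-high minus immediate-early-low, which understates the change of low genes. A member of a list is said to have a higher mean where its mean of log2(RPKM + 1) was higher in immediate-early-high tumours. Since none passed, these are values and not calls.

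Of genes higher in immediate-early-high tumours, the 15 with the lowest p, passing over predicted genes and pseudogenes, were led by transcription factors. Irx3, an Iroquois homeobox factor, was at 51.2, 66.6 and 93.7 RPKM (lowest, median, highest) in immediate-early-high tumours, against 26.8, 42.6 and 61.0 RPKM in immediate-early-low tumours. Its difference was 0.76 ± 0.14 (SE; limma adjusted p = 0.137), and 8 immediate-early-high tumours were above every immediate-early-low tumour. Irx5, its neighbour in gene order and a factor of the same family, averaged 34.7 ± 5.43 RPKM in immediate-early-high tumours and 24.4 ± 5.53 RPKM in immediate-early-low tumours (difference 0.51 ± 0.12), whereas Fto, the neighbour on Irx3's other side, averaged 26.2 RPKM in immediate-early-high tumours and 25.1 RPKM in immediate-early-low tumours (difference 0.07). Sox10, a factor of neural crest and of mammary progenitor cells, was at 114, 166 and 202 RPKM in immediate-early-high tumours, against 94.9, 112 and 125 RPKM in immediate-early-low tumours (difference 0.50 ± 0.10, adjusted p = 0.225). The immediate-early-low tumours were tightly grouped for Sox10, and animals 4438 and 4016 lay among them. Klf5, a Krüppel-like factor of epithelial proliferation, was at 11, 13.8 and 16.8 RPKM in immediate-early-high tumours, against 2.93, 8.48 and 13 RPKM in immediate-early-low tumours (0.77 ± 0.16). Here 9 immediate-early-low tumours were below every immediate-early-high tumour. Srf, the factor that binds CArG boxes, was at 13.9, 18.7 and 22.9 RPKM in immediate-early-high tumours, against 10.2, 14.3 and 16 RPKM in immediate-early-low tumours (0.43 ± 0.09).

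A pair of genes among the 15 encode zinc-finger proteins that bind AU-rich elements and speed the decay of short-lived mRNAs. Zfp36l2 was at 37.7, 48.2 and 66.2 RPKM in immediate-early-high tumours, against 24.8, 34.1 and 46.1 RPKM in immediate-early-low tumours (0.51 ± 0.11). Zfp36 was at 24.4, 30.1 and 46.0 RPKM in immediate-early-high tumours, against 19.5, 23.2 and 32.8 RPKM in immediate-early-low tumours (0.50 ± 0.12). Its immediate-early-low values lay close together except for animal 4378. Sik1, a salt-inducible kinase that restrains CREB-driven transcription, was at 22.3, 27.7 and 54.3 RPKM in immediate-early-high tumours, against 14.4, 18 and 28.3 RPKM in immediate-early-low tumours (0.64 ± 0.15), with its highest value among these groups in animal 4042. The other 7 were N4bp3, AI661453, Ccdc120, Map1lc3a (a coat protein of autophagosomes), Rnf44, Cdc42ep1 (an effector of the Cdc42 GTPase) and Shb (an SH2 adaptor of receptor tyrosine kinases). Their differences ran between 0.34 for Rnf44 and 0.62 for Map1lc3a. All 15 had a positive difference within the deep and within the shallow libraries.

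Lower in immediate-early-high tumours, with the same smallest adjusted p of 0.137, was Hsh2d, an SH2 adaptor of blood cells. It was at 2.86, 3.58 and 5.62 RPKM in immediate-early-high tumours, against 4.20, 6.51 and 8.60 RPKM in immediate-early-low tumours (difference -0.61 ± 0.11). Cib3, the next gene in chromosomal order and a calcium-binding protein, averaged 5.21 ± 1.21 RPKM in immediate-early-high tumours and 8.53 ± 2.54 RPKM in immediate-early-low tumours (-0.59 ± 0.14). Calr3, 6 places away, averaged 2.67 RPKM in immediate-early-high tumours and 3.83 RPKM in immediate-early-low tumours (-0.39), while the genes in between (Fam32a, Ap1m1, Klf2 and Eps15l1) had differences of -0.04, 0.05, 0.15 and 0.03. The kininogens Kng1 and Kng2, adjacent paralogues whose reads the counting could have split, had differences of -0.70 and -0.85. Their levels were 0.598 and 1.29 RPKM in immediate-early-high tumours, against 1.72 and 3.52 RPKM in immediate-early-low tumours. Of the other tested genes within 3 places of Kng1, Fetub had a difference of -0.61, Rfc4 of -0.34, Adipoq of -0.20 and Eif4a2 of -0.07. Cd47, the surface signal that restrains phagocytosis, was at 17.9, 21.1 and 24.9 RPKM in immediate-early-high tumours, against 22.4, 26.3 and 29.8 RPKM in immediate-early-low tumours (-0.28 ± 0.08). The rest of the 15 were C1d, Crlf3, Tmem263, Lctl, Npb, Gcgr, Fgf8, Serp2 and Morn1, with differences between -0.59 for Serp2 and -0.29 for Crlf3. All 15 had a negative difference within both depth classes, and none but C1d and Cd47 averaged 10 RPKM or more in immediate-early-high tumours.

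**Figure D2:**
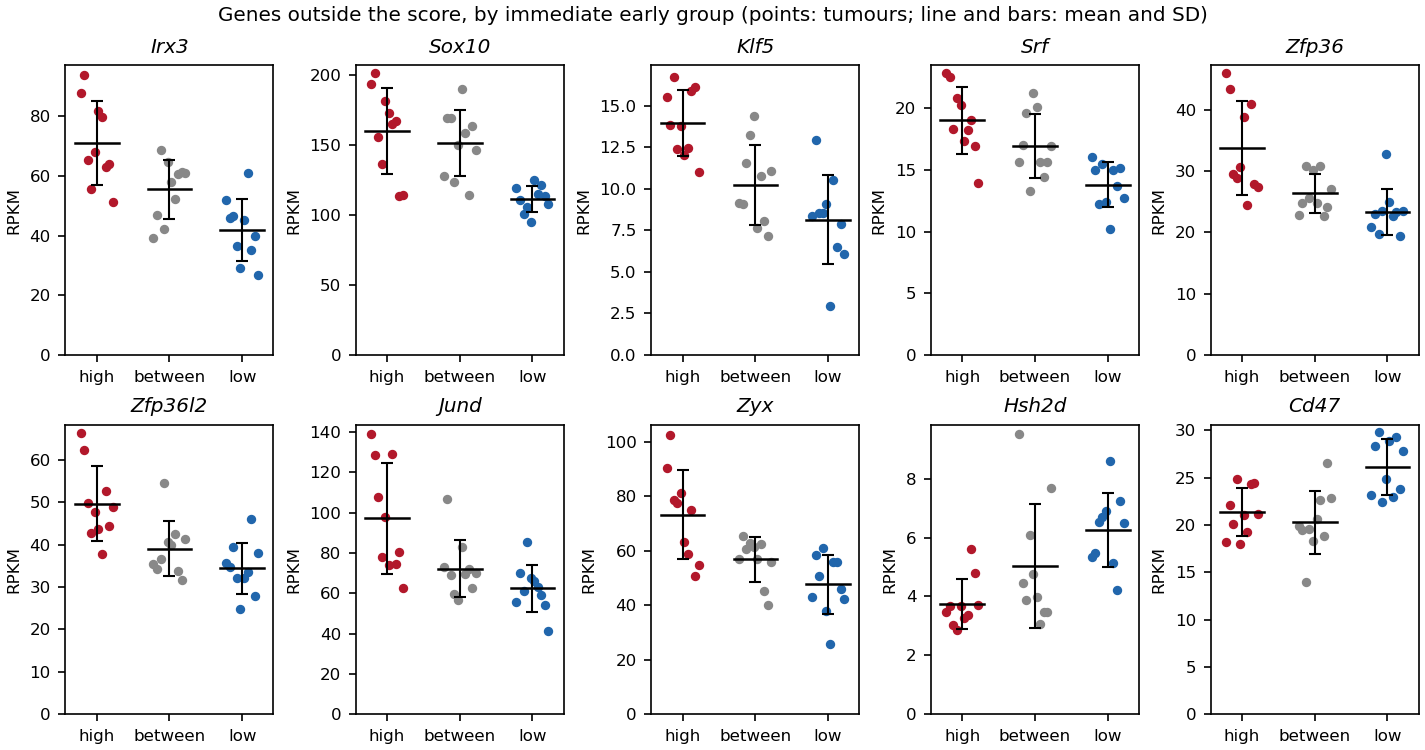
Each panel plots the RPKM of a gene outside the score in every tumour of the immediate-early-high, between and immediate-early-low groups (10 tumours each; lines and bars are mean and SD). Irx3, Sox10, Klf5, Srf, Zfp36, Zfp36l2, Jund and Zyx have higher means in immediate-early-high tumours and Hsh2d and Cd47 lower means, with overlapping groups in every panel.

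The rest of the AP-1 family was mixed. Of its 11 tested members, 8 had a higher mean in immediate-early-high tumours, against 6246 of all 13597 genes. At an unadjusted p under 0.05, 3 were higher and 1 was lower, with a median difference of 0.07. Jund, the JUN subunit that is present without stimulation, was at 62.6, 89.0 and 139 RPKM in immediate-early-high tumours, against 41.1, 62.2 and 85.6 RPKM in immediate-early-low tumours (0.60 ± 0.15, adjusted p = 0.270). Fosl2 averaged 18.6 ± 3.15 RPKM in immediate-early-high tumours and 15.1 ± 4.47 RPKM in immediate-early-low tumours, and Maff, a small MAF partner, averaged 4.36 ± 1.62 RPKM in immediate-early-high tumours and 3.0 ± 0.85 RPKM in immediate-early-low tumours. Batf, a lymphocyte AP-1 factor, went the other way, at 1.18 ± 0.571 RPKM in immediate-early-high tumours and 1.88 ± 0.856 RPKM in immediate-early-low tumours (-0.39).

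EGR, NR4A and Krüppel-like factors held the highest share of members at an unadjusted p under 0.05 of the 35 lists, 6 of 13 higher and 0 lower, with a median difference of 0.19. These were Klf5, Egr2, Nr4a1, Klf4, Egr3 and Klf6. Nr4a1, an orphan nuclear receptor induced by serum, averaged 17.6 ± 6.5 RPKM in immediate-early-high tumours and 11.6 ± 2.58 RPKM in immediate-early-low tumours (0.50 ± 0.18). Egr2 and Egr3, relatives of Egr1, averaged 2.73 and 3.86 RPKM in immediate-early-high tumours, against 1.77 and 2.62 RPKM in immediate-early-low tumours. Klf4 had the next largest difference after Klf5, 0.72 ± 0.27. Nr4a2 had the lowest, -0.09.

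Of the 41 other immediate early genes tested, 36 had a higher mean in immediate-early-high tumours and 14 were higher at an unadjusted p under 0.05, with none lower (median difference 0.25). The 14 were Srf, Zfp36l2, Sik1, Zfp36, Bhlhe40, Rhob, Pim1, Zfp36l1, Ier5l, Csrnp1, Ier3, Phlda1, Cebpd and Plk3. Rhob, a small GTPase of endosomes, averaged 89.8 ± 16 RPKM in immediate-early-high tumours and 66.1 ± 11.8 RPKM in immediate-early-low tumours (0.43 ± 0.11). Ier3, a survival factor of stressed cells, averaged 87.3 ± 38.4 RPKM in immediate-early-high tumours and 57.4 ± 23.1 RPKM in immediate-early-low tumours (0.57 ± 0.24). The most abundant member, Id2, averaged 166 ± 31.9 RPKM in immediate-early-high tumours and 142 ± 34.4 RPKM in immediate-early-low tumours (0.24 ± 0.14), and the lowest difference was -0.18 for Gadd45a. With animals 4139 and 4042 left out, 12 of the 41 were higher at that p, and with values corrected for GC content 12 were. Together these genes and the AP-1 and EGR lists are the relatives of the score genes, and were listed as such, so their direction is no independent evidence about the score.

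Among the MAP kinase feedback genes, 4 of 14 were higher at an unadjusted p under 0.05 and none lower (median difference 0.18). They were the phosphatase genes Dusp5, Dusp8, Dusp14 and Dusp16. Dusp5, which holds ERK in the nucleus, averaged 19.4 ± 5.17 RPKM in immediate-early-high tumours and 13.5 ± 3.38 RPKM in immediate-early-low tumours (0.48 ± 0.14). The abundant ERK-specific phosphatase gene Dusp6, a common gauge of ERK output, averaged 43.4 ± 12.5 RPKM in immediate-early-high tumours and 44.0 ± 14 RPKM in immediate-early-low tumours (-0.00 ± 0.20). Spred1, another ERK inhibitor, averaged 25.1 RPKM in immediate-early-high tumours and 28.6 RPKM in immediate-early-low tumours. Of 25 Ras-ERK pathway components, 1 was higher at an unadjusted p under 0.05, a share near the 4.71% of all genes tested. It was the ERK1 gene Mapk3, at 134 ± 20.3 RPKM in immediate-early-high tumours and 110 ± 17.4 RPKM in immediate-early-low tumours. Of 15 JNK and p38 components, 1 was lower, where 2.77% of all genes tested were. It was the JNK2 gene Mapk9, at 12.8 ± 0.983 RPKM in immediate-early-high tumours and 15.1 ± 3.13 RPKM in immediate-early-low tumours.

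Among downstream genes, SRF targets of the cytoskeleton had 14 of 15 higher means and 2 members at an unadjusted p under 0.05 (median difference 0.19). Zyx, a focal adhesion protein gene, was at 50.5, 76.2 and 102 RPKM in immediate-early-high tumours, against 25.7, 48.4 and 60.8 RPKM in immediate-early-low tumours (0.61 ± 0.15, adjusted p = 0.270). Actg1, cytoplasmic gamma-actin, averaged 1218 ± 145 RPKM in immediate-early-high tumours and 997 ± 208 RPKM in immediate-early-low tumours. AP-1 target genes had 14 of 18 higher means and 3 members at that p, Cd44, Vegfa and Thbs1 (median difference 0.11). Cd44, the hyaluronan receptor, averaged 30.2 ± 5.38 RPKM in immediate-early-high tumours and 22.7 ± 5.07 RPKM in immediate-early-low tumours (0.41 ± 0.12).

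Stress programmes were mixed. In the heat shock list 4 of 22 members were higher at an unadjusted p under 0.05, although its median difference was 0.01 and 11 members had a higher mean. These 4 were the small chaperone Hspb1, the inducible HSP70 genes Hspa1a and Hspa1b, near-identical copies that share reads, and the co-chaperone Bag3. Hspa1a was at 6.93, 15.4 and 26 RPKM in immediate-early-high tumours, against 7.29, 10.8 and 12.5 RPKM in immediate-early-low tumours (0.53 ± 0.18). Hsp90ab1, the constitutive HSP90 gene, had a difference of 0.03. The hypoxia list had a higher mean in 19 of 19 members and 4 at that p (Vegfa, Adm, Slc2a1 and Aldoa), with a median difference of 0.27 and the lowest, 0.07, in Pfkfb3. Vegfa, the angiogenic growth factor, was at 13.7, 26.2 and 75.6 RPKM in immediate-early-high tumours, against 5.65, 13.4 and 51.5 RPKM in immediate-early-low tumours (0.87 ± 0.29), with wide overlap. Of 22 unfolded protein and integrated stress response genes 2 were higher (Chac1 and Atf5), and Xbp1 differed by -0.05. Of 22 NF-kappaB and inflammatory genes 2 were higher (Bcl3 and Csf1). Of 12 p53 targets 3 had a higher mean and Mdm2 was lower (-0.16 ± 0.07). In the glucocorticoid list, 2 of 11 were higher, the metallothionein Mt2 and the clock gene Per1, and in the clock list, which shares Per1, 2 of 17. Mt2 was at 120, 177 and 260 RPKM in immediate-early-high tumours, against 17.5, 76.3 and 383 RPKM in immediate-early-low tumours, so the immediate-early-low tumours spanned the whole range of the others.

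Proliferation genes showed no shared direction: 14 of 32 had a higher mean, 0 were at an unadjusted p under 0.05 by limma in either direction, and the median difference was -0.02. The 18 ribosomal protein genes and the 18 oxidative phosphorylation genes had median differences of -0.03 and -0.04, each with 5 higher means. Interferon response genes had a lower mean in immediate-early-high tumours in 20 of 20 members, with a median difference of -0.24, yet 0 were at an unadjusted p under 0.05. Their summed level was at 99.8, 149 and 362 RPKM in immediate-early-high tumours, against 116, 143 and 452 RPKM in immediate-early-low tumours, so the medians differed little and the highest tumour was an immediate-early-low one. Isg15, for example, was at 3.32, 7.35 and 25.5 RPKM in immediate-early-high tumours, against 4.15, 8.83 and 52.5 RPKM in immediate-early-low tumours.

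Markers of cell types were set beside these values, since the pieces are bulk tissue. Luminal epithelial markers had a higher mean in 12 of 14 members and 6 at an unadjusted p under 0.05 (Cldn3, Krt8, Cldn4, Krt19, Gata3 and Krt18), with a median difference of 0.28. Their summed level was at 2169, 2571 and 3507 RPKM in immediate-early-high tumours, against 1613, 2151 and 2460 RPKM in immediate-early-low tumours. Cldn3, a tight junction gene, averaged 213 ± 51.5 RPKM in immediate-early-high tumours and 146 ± 28.4 RPKM in immediate-early-low tumours (0.53 ± 0.14). Fibroblast and matrix markers had 5 of 20 higher means and 0 at that p (median -0.11), and the median of their summed level was 1551 RPKM in either group. T and NK cell markers had 0 of 8 higher means and a median of -0.27, with a summed level of 18.2 to 67.0 RPKM in immediate-early-high tumours and 21.4 to 84.6 RPKM in immediate-early-low tumours. For macrophage markers 11 of 18 had a higher mean (median 0.06), for endothelial markers 12 of 15 (0.05), for basal and myoepithelial markers 10 of 12 (0.16, Sox10 alone at that p), and for B and plasma cell markers 2 of 8 (-0.40, Sdc1 alone).

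The largest list medians belonged to tissues that can be taken along with a tumour. Skeletal muscle genes had a higher mean in 14 of 14 members, with a median of 1.10, but 0 at an unadjusted p under 0.05. Their summed level was at 38.8, 247 and 17262 RPKM in immediate-early-high tumours, against 34.7, 59.5 and 6665 RPKM in immediate-early-low tumours. Keratinised epithelium genes had a higher mean in 7 of 7 members, with a median of 1.05, and 3 at that p (Sprr1a, Krt10 and Krt1). Their summed level was at 23.6, 49.7 and 385 RPKM in immediate-early-high tumours, against 19.5, 35.9 and 71.2 RPKM in immediate-early-low tumours. Sprr1a, a cornified envelope gene and a known AP-1 target, was at 0.0580, 3.97 and 110 RPKM in immediate-early-high tumours, against 0.152, 0.541 and 1.73 RPKM in immediate-early-low tumours. The 5 immediate-early-high tumours with the most Sprr1a, animals 4488, 4438, 3871, 3427 and 4492, were between 6.99 and 110 RPKM, above every immediate-early-low tumour. Animals 4139 and 4042, with the highest scores, were at 0.477 and 0.800 RPKM. The part of these tissues in the differences above was not tested. The remaining lists (milk secretory, pericyte, neutrophil, mast cell, adipocyte, erythroid and nerve) had at most 1 member at that p.

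**Figure D3:**
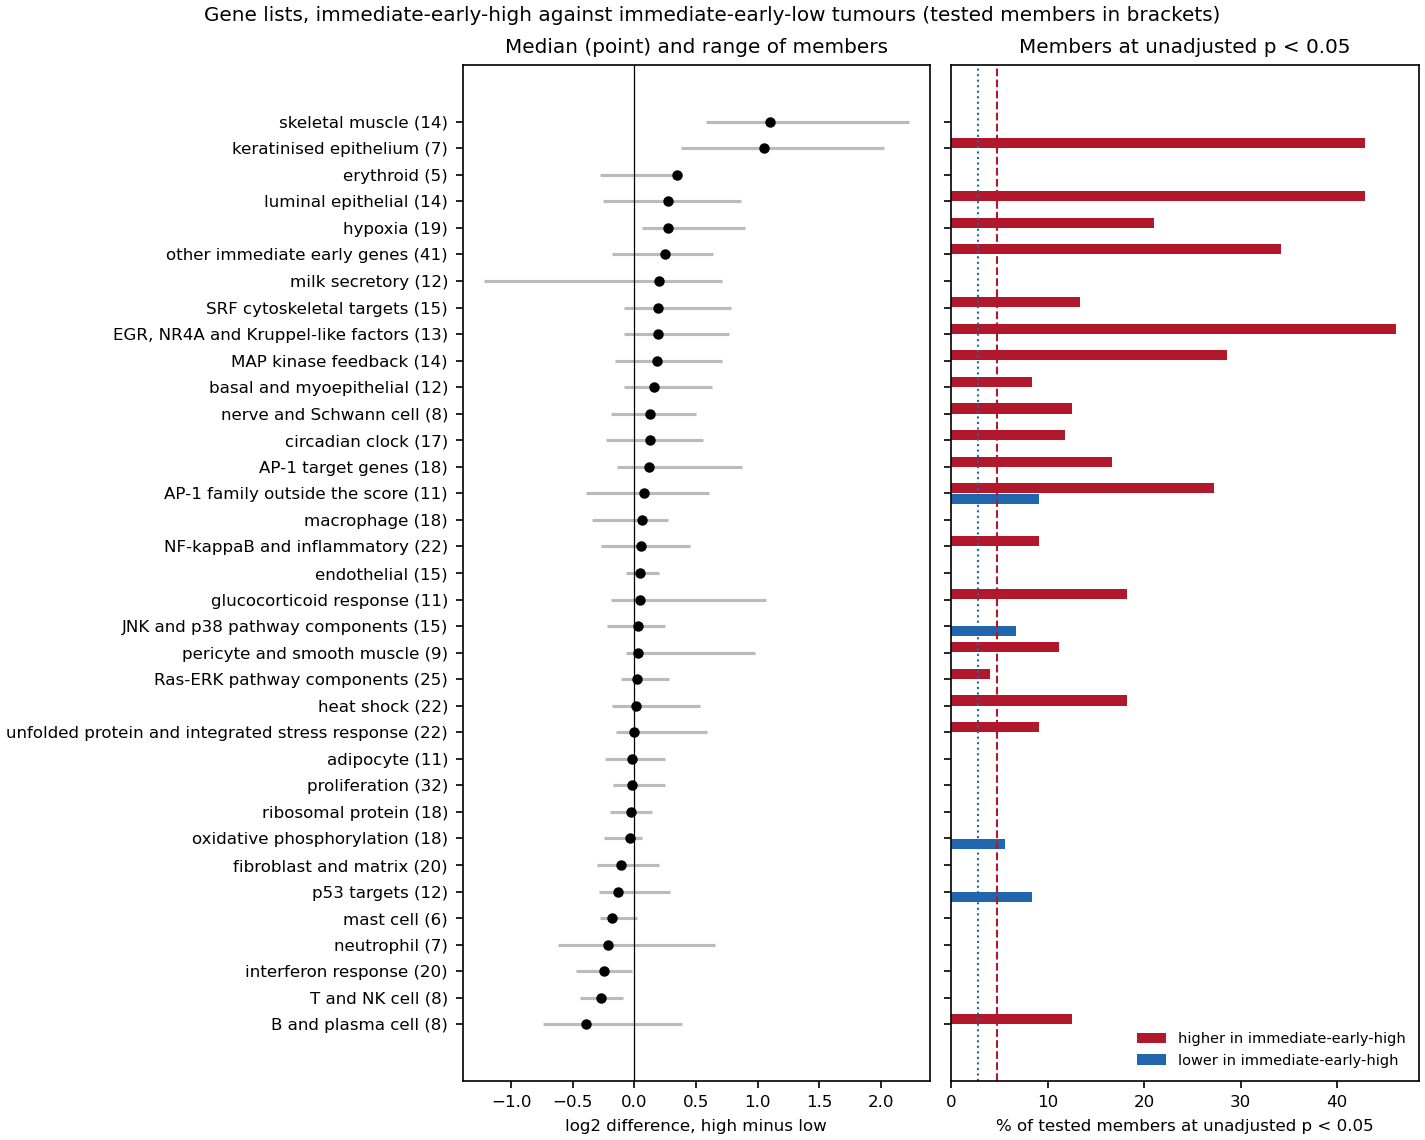
For each of 35 gene lists, the left panel plots the median (point) and range (line) of the log2 differences, immediate-early-high minus immediate-early-low, and the right panel the percentage of tested members at an unadjusted p under 0.05 in each direction (dashed and dotted lines: 4.71% higher and 2.77% lower over all genes). The EGR, luminal, keratinised and other immediate early lists have the largest percentages of members higher, and skeletal muscle has the largest median, 1.10, with no member at that p.

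A slope on the score over all 30 tumours uses the tumours between as well, and is given in units of the difference between the group means (1.41 score units). With limma and the same adjustment, 100 genes rose with the score (0.735% of genes tested) and 40 fell (0.294%). Of these 140 genes, 128 were at an unadjusted p under 0.05 in the comparison of the groups, against 7.48% of all genes tested. The slope was fitted on tumours that include both groups, with the same score, so this overlap is a description only. Jund led, with a slope of 0.66 ± 0.09 (adjusted p = 0.000377), followed by Zfp36 (0.49, adjusted p = 0.00214), Irx3 (0.67), Zyx (0.61) and Zfp36l2 (0.49). Immediate early genes among the rising 100 were Jund, Klf5, Srf, Zfp36, Zfp36l2, Sik1, Ier3, Ier5l, Cebpd and Pim1, and Dusp14 was the only feedback gene. Dusp5 (adjusted p = 0.069), Bhlhe40 (0.0503) and Rhob (0.0624) missed the threshold. Adhesion and cytoskeleton genes that rose included Zyx, the kinase Src (0.34, adjusted p = 0.0104), its adaptors Bcar1 and Pxn, the junction genes Jup and Cldn3 and the actin-binding Tagln2. Rela, the p65 subunit of NF-kappaB, and Bcl3, a member of the NF-kappaB and inflammatory list, rose by 0.28 and 0.46. Krt8 and Krt19 rose by 0.41 and 1.0, and Hspb1 by 0.50. Among the 40 that fell, Fgf8, a growth factor gene at 1.48 ± 0.556 RPKM in immediate-early-high tumours and 2.39 ± 0.626 RPKM in immediate-early-low tumours, had a slope of -0.48 (adjusted p = 0.0241). The RNA surveillance kinase gene Smg1 (-0.39), the DNA repair helicase gene Fancm (-0.34) and the cilium gene Cep290 (-0.44) fell too. Hsh2d missed the threshold here (-0.45, adjusted p = 0.0776).

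The number of these calls depended on which tumours were in the fit. Without animals 4139 and 4042, 0 genes passed by limma in either direction and the smallest adjusted p was 0.0811. Of the 140 genes, which were chosen on a fit that held the other 28 tumours too, 118 were then at an unadjusted p under 0.05. Over all 13597 genes, 1299 were at that p in the same fit (9.55%). Jund then had a slope of 0.65 and Zfp36 of 0.43. Leaving out animal 4042 alone left 9 rising and 0 falling genes, and leaving out animal 4139 alone left 18 and 2. Leaving out animal 4038 alone, the tumour with the lowest score, left 15 and 3. Tumours other than the highest and the lowest mattered too: 36 and 10 were left without animal 3427, an immediate-early-high tumour, and 53 and 14 without animal 4459, a tumour between. Of the 30 single omissions, 15 moved the rising count by over 1.5 times and 24 the falling count. The count was also lower in fits that took depth into account. With depth class as a covariate 56 rose and 17 fell. Within the 15 deep libraries 11 rose and 1 fell, and within the 15 shallow libraries 0 and 0. Fits within a class hold fewer tumours, so their lower counts cannot show a dependence on depth. The slopes of the depth classes were compared by an interaction term in limma, for which 0 of 13597 genes passed. The smallest adjusted p was 0.810, and 634 genes were at an unadjusted p under 0.05.

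Both of these tumours were also high for some genes outside the score and not for others. Jund was at 139 and 129 RPKM in animals 4139 and 4042, and the other immediate-early-high tumours were between 62.6 and 129 RPKM. Zfp36 was at 46 and 43.4 RPKM in the pair, Srf at 22.9 and 22.5 RPKM and Ier3 at 127 and 162 RPKM, in each case the highest of the 20 tumours compared. Hspb1 and Krt19 were high in animal 4042 only of the pair, at 136 and 481 RPKM. Animal 4139 was at 69.8 RPKM of Hspb1, below the 111 RPKM of animal 4488. Its Krt19 of 226 RPKM was below the 257 RPKM of the immediate-early-low animal 4030. In contrast, Klf4 was at 3.5 and 2.85 RPKM and Egr3 at 2.82 and 3.02 RPKM in animals 4139 and 4042. These values were low within the immediate-early-high group, where animal 4488 reached 11.3 RPKM of Klf4 and 6.32 RPKM of Egr3. For Vegfa the pair parted: animal 4139 was at 13.7 RPKM, the lowest of its group, and animal 4042 at 36.5 RPKM, below animal 4438 alone.

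**Figure D4:**
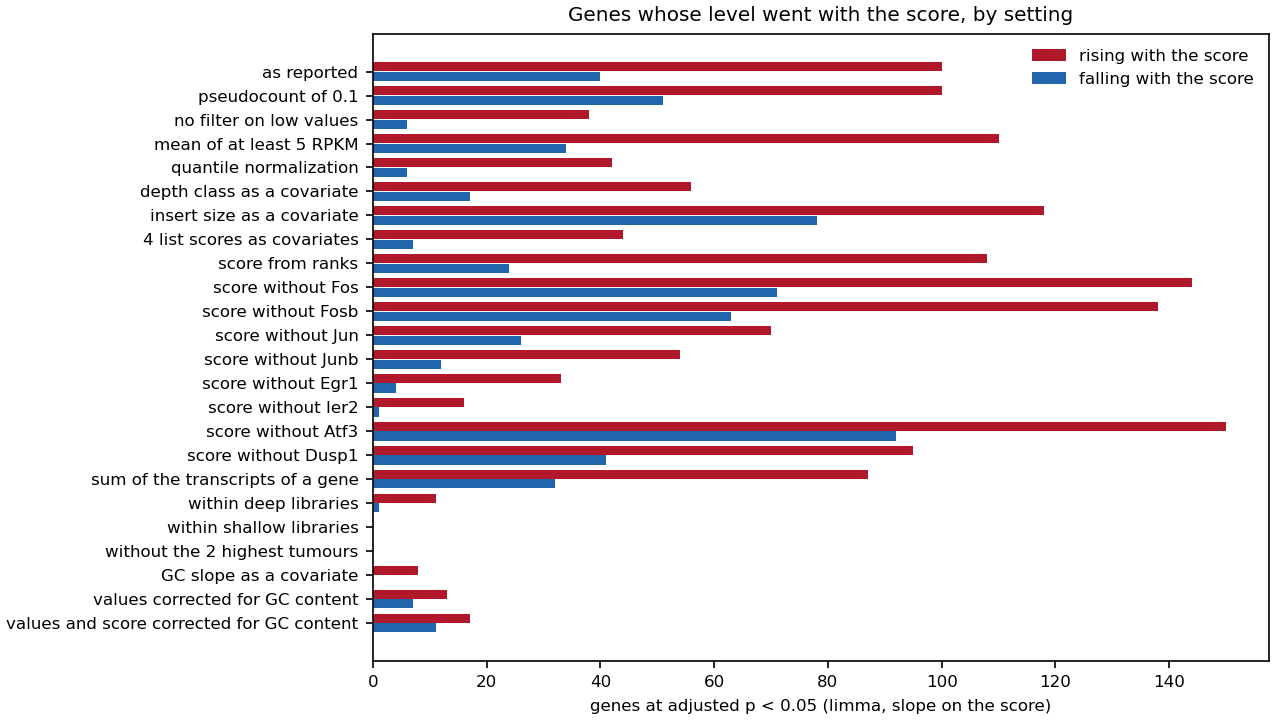
Bars count the genes at an adjusted p under 0.05 that rose (red) or fell (blue) with the immediate early score over the tumours, under each setting. The counts of 100 and 40 as reported become 0 and 0 without the 2 highest tumours and 13 and 7 with values corrected for GC content.

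Transcript GC content went with these differences. The 10% of genes with the lowest GC had a median difference of -0.12 between the groups and 13.9% were higher in immediate-early-high tumours, while in the 10% with the highest GC the median was 0.09 and 68.6% were higher. The 100 rising genes had a median GC content of 59.4%, the 40 falling genes 48.1% and all tested genes 51.0%. With each tumour's values corrected for GC content, 13 genes rose and 7 fell with the score, and 18 of these 20 were among the 140. With the GC slope as a covariate 8 rose and 0 fell, and 8 of these were among the 140. Under both, 7 genes passed: Jund, Zfp36, Zfp36l2, Klf5, Irx3, Zyx and Map1lc3a. Srf did not (adjusted p = 0.0928 with corrected values). What sets the GC slope was not tested, and the labels give no RNA quality.

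**Figure D5:**
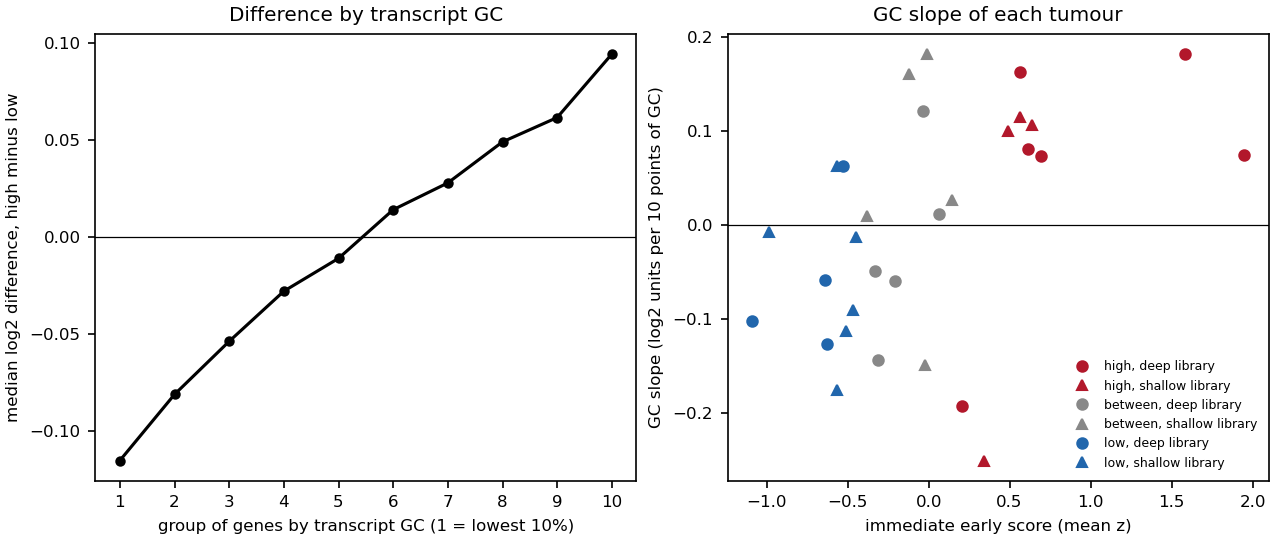
The left panel plots the median log2 difference, immediate-early-high minus immediate-early-low, in 10 groups of genes ordered by transcript GC content, and the right panel the GC slope of each of the 30 tumours (log2 units per 10 percentage points) against its score, with circles for deep and triangles for shallow libraries. The median runs between -0.12 and 0.09, and 8 of 10 immediate-early-high tumours, against 2 of 10 immediate-early-low tumours, have slopes above 0.

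The 10 tumours between the groups entered the slope but not the comparison of the groups. Among them alone, 85 of the 100 rising genes had a positive slope, against 61.0% of all genes, and 32 of the 40 falling genes a negative slope, against 39.0%. These genes were chosen on a fit that held the same 10 tumours, so the counts are a description only. For the 15 genes with the smallest p in the comparison of the groups, which did not use these tumours, 11 of 15 higher genes had a positive slope and 7 of 15 lower genes a negative slope. Irx3 was among the exceptions: in the tumours between, its slope was -1.17 in the same units, with a mean of 55.5 ± 9.88 RPKM. Map1lc3a (1.55) and Sik1 (1.23) followed the direction of the groups, and Zfp36 was nearly flat (0.02).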

How the data were processed

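The authors deposited 1 table of values for 27902 RefSeq transcripts in 30 libraries, with each column named by its animal. The values were taken as RPKM from the deposited table itself, since low values times transcript length fall on steps, as RPKM of whole reads would: 68.8 to 79.7% of such values lay within 0.12 of a whole read, against 24% by chance. Counts could not be rebuilt from so few, which leaves no count test. The submitters' processing notes name CASAVA 1.7.0. Aligner settings, build and strand handling are not given, so reads of overlapping genes cannot be told apart.

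Transcripts were named with RefSeq (26490) and GENCODE vM21 (141), and 1271 without a name (1.96% of summed RPKM) and 705 small RNA transcripts were left out. The transcript with the highest mean stood for each of 20831 genes. Tests used limma 3.58.1 in R 4.3.3 (empirical Bayes with trend, two-sided, Benjamini-Hochberg over 13597 genes) on log2(RPKM + 1), for genes averaging 1 RPKM or more. The groups are 10 libraries each, 1 per animal, so errors and p-values hold the differences between animals and those of library making together. The slope on the score was listed as an alternative, and its genes are named because the comparison of the groups gave none. Permutation tests (100000 resamples) used scipy 1.17.1. Depth came from transcripts of 150 to 2500 bases, and GC correction was a loess of span 0.5 within each tumour over 13569 genes.

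The members, the lists and the score were chosen with earlier results of these data known. Named genes are the 8 score genes, the 15 with the smallest p in each direction and, in each of 35 lists, the highest, the largest differences and those passing. Predicted genes (symbols starting with LOC or with Gm and a digit, or ending in Rik) and pseudogenes were passed over in taking the 15 and in naming genes of the slope. List members at an unadjusted p under 0.05, genes of the slope, neighbours in gene order and promoter windows were chosen after their values were seen. In simulated data for 13597 genes, the comparison of groups recovered 56% of genes changed by 0.5 log2 units, 94% at 1.0 and 98% at 2.0. Its false calls were 5.52%. The slope recovered 64% at 0.5, 96% at 1.0 and 100% at 2.0, with 6.77% false calls. Each simulated gene varied normally and independently of the others. The rates therefore need not hold for the real values, in which differences went with GC content. Alternatives were the pseudocount, the filter, quantile normalization, covariates, group size, the score's genes, summed transcripts and single omissions. Those on GC content, the 2 highest tumours and the slope were added after the data were seen.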

Additional observations from a re-analysis of the deposited data

Results flagged for a closer look

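In groups of 10 tumours, the highest or lowest value of some of the named genes was examined on the log2(RPKM + 1) scale. A value was picked out where its gap to the nearest tumour, as a share of the group's range, passed Dixon's critical value. Chance does so in about 1 of 20 groups. This marked 5 of 84 groups. The 84 did not cover every gene named above, so values outside them can stand apart too. Vegfa, for example, was at 51.5 RPKM in the immediate-early-low animal 4150, and the next immediate-early-low tumour, animal 4357, was at 18.1 RPKM. Atf3 was at 21.4 RPKM in the immediate-early-high animal 4438, against 6.47 to 12.2 RPKM in the other immediate-early-high tumours. Rnf44 was at 30.7 RPKM in the immediate-early-high animal 4016, below the 38.6 to 49.5 RPKM of the rest of its group, and Tmem263 was at 9.31 RPKM there, above the 5.48 to 6.70 RPKM of the rest. Zfp36 was at 32.8 RPKM in the immediate-early-low animal 4378, against 19.5 to 25 RPKM in the other immediate-early-low tumours. Serp2 was at 4.75 RPKM in the immediate-early-low animal 4150, against 0.975 to 2.42 RPKM in the other immediate-early-low tumours.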

How the results depend on the processing

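The 30 genes named for the smallest p in the comparison of the groups and the genes named for the slope kept their direction under every alternative run for them, and other list members were not run for each. Some list medians turned: proliferation was at 0.02 with GC-corrected values, against -0.02 as reported, and the milk list at -0.02 without the 2 highest tumours, against 0.20. Medians near 0 as reported turned as well for the JNK and p38 list and the adipocyte list without the 2 highest tumours. That of the unfolded protein list did so with GC-corrected values. At an unadjusted p under 0.05, 7 against 7 tumours gave 798 higher and 826 lower genes, a score without Atf3 820 and 869, and the slope 1035 and 1409, against 640 and 377 as reported. The comparison of the groups gave 0 genes in each direction by limma under all alternatives but these: 1 higher with 7 against 7 tumours, 4 higher and 1 lower with Atf3 left out of the score, and 0 to 5 higher and 0 to 1 lower with single tumours left out (5 without animal 4016, 1 without animal 4142). The slope over 30 tumours gave 100 and 40. Its counts of rising and falling genes were 38 and 6 with no filter on low values, 42 and 6 with quantile normalization, 56 and 17 with depth class, 118 and 78 with insert size and 44 and 7 with 4 list scores as covariates. They were 108 and 24 with a score from ranks, and for scores leaving out a gene 144 and 71 (Fos), 138 and 63 (Fosb), 70 and 26 (Jun), 54 and 12 (Junb), 33 and 4 (Egr1), 16 and 1 (Ier2) and 150 and 92 (Atf3). Within deep libraries they were 11 and 1, within shallow libraries 0 and 0, without the 2 highest tumours 0 and 0, with the GC slope as a covariate 8 and 0, with values corrected for GC content 13 and 7, and with the score corrected too 17 and 11. Leaving out single tumours gave 9 to 190 rising and 0 to 142 falling genes, and 15 of 30 omissions moved the rising count by over 1.5 times. It was lower without 4042 (9), 4038 (15), 4139 (18), 4492 (35), 3427 (36), 4378 (40), 4357 (41), 4488 (42), 4142 (43), 4459 (53), 4547 (65) or 3939 (66), and higher without 4150 (190), 4030 (179) or 4438 (172). For falling genes 24 omissions did so. The cause of these moves was not tested, beyond the fewer tumours in the fits within a depth class. Other scores kept 9 or 10 of the immediate-early-high and 8 to 10 of the immediate-early-low tumours. No paired analysis was possible because the labels give no replicate numbers that the groups share.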
